A study of Mus musculus with 10 samples.

Results

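The genes described here are 32 mouse genes of the hypoxia response and of glycolysis, taken from a list drawn up for this purpose. Each was followed through the probe set, among those annotated to that gene alone, with the highest mean over 10 arrays, and was kept if at least 1 group mean reached 4 on the log2 scale. The rule kept 27 of the 32 genes, out of 10623 genes tested in all, and each of the 27 had a mean of 4 or more in every group. Car9, a carbonic anhydrase, stayed below 4 in every group. Bnip3l and Gapdh had only probe sets shared with a further gene symbol or used as array controls, and no probe set was listed under the symbols Eno1 and Gpi1.

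Mouse embryonic fibroblasts, connective tissue cells cultured from embryos, were profiled on 10 Affymetrix arrays, 2 for each of 5 groups. The conditional Dicer knockout line (CDKO) has 6 of the arrays, and 4 belong to cells titled wild type (WT). Dicer is the ribonuclease that matures microRNAs. The CDKO groups were untreated, or received 4-hydroxytamoxifen, named tamoxifen in the source names, for 4 days at either 1 µM or 5 µM. Of the WT groups, 1 was untreated and 1 received 5 µM. All groups were grown in DMEM with 10% serum in standard culture, and no label names a low-oxygen condition. The labels name neither the Cre transgene nor its promoter, nor the age of the embryos, and the description calls all 10 samples conditional knockout while the titles name 4 as WT. Whether replicate arrays stem from different cultures is not said, so p-values measure the spread between these samples, which may be technical. These are bulk samples, in which fewer cells of a type and less RNA per cell cannot be told apart.

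Hypoxia-inducible factor (HIF) pairs an oxygen-regulated subunit such as Hif1a with a stable partner. In normal oxygen the prolyl hydroxylases Egln1 to Egln3 mark the subunit for destruction, and when they slow down it accumulates and binds target genes at a short core sequence. Its targets include the glucose transporter Slc2a1, most enzymes of glycolysis, the kinase Pdk1 that holds pyruvate back from the mitochondria, and Egln3 itself, as well as genes of mitophagy (Bnip3), vessel growth (Vegfa, Adm) and collagen hydroxylation (P4ha1, P4ha2). Fibroblasts in culture run glycolysis at a high rate in normal oxygen too.

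The HIF core was looked for as ACGTG or GCGTG on both strands of the 250 bases before each RefSeq gene start (build GRCm38.p6), with overlapping matches counted separately, so that the palindrome CACGTG counts on both strands. Of the 27 kept genes, all but Ndrg1 (26) matched a promoter window by symbol, with 38 windows in all. At least 1 match lay in 31 of the 38 windows (81.6%), as in 12679 of the 32851 windows of all genes (38.6%). ACGTG itself was in 57.9% of the members' windows and in 16.6% of all windows. The members' windows were also richer in G and C, with a mean of 61.7% against 53.2%, and the part of base composition in the difference was not tested. The list holds genes known as HIF targets, so the share is a description of how the list was built. The windows below belong to 6 of the genes that were higher in treated WT cells, chosen to show the range from 5 matches to none, with the core in capitals and each read 5′ to 3′ on the gene's strand. Bnip3 had 5 matches (chr7:138909507-138909756, minus strand), Ankrd37 had 4 (chr8:45999851-46000100, minus strand), Ero1a had 3 (chr14:45318573-45318822, minus strand) and Pgam1 had 3 (chr19:41911621-41911870, plus strand). The first of the Aldoc starts had 1 (chr11:78322823-78323072, plus strand) and Tpi1 had 0 (chr6:124814159-124814408, minus strand).
Bnip3: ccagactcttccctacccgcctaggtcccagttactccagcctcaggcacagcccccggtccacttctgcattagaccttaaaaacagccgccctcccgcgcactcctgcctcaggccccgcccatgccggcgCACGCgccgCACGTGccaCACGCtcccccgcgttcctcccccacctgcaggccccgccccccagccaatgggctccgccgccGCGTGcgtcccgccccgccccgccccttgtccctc
Ankrd37: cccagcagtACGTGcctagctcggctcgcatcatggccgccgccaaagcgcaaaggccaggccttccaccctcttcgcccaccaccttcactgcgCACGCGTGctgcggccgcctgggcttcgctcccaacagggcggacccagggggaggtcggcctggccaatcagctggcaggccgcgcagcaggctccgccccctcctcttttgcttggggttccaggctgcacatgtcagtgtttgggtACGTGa
Ero1a: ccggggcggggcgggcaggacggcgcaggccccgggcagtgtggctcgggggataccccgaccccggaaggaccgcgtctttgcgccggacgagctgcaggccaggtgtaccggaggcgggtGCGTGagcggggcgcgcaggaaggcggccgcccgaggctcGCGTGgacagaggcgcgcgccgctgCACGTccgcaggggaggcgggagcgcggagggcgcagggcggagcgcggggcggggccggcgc
Pgam1: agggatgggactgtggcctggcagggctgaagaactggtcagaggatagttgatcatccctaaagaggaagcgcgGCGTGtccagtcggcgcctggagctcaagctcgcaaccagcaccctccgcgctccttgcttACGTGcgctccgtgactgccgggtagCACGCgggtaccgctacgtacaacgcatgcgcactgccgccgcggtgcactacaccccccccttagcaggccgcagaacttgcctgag
Aldoc: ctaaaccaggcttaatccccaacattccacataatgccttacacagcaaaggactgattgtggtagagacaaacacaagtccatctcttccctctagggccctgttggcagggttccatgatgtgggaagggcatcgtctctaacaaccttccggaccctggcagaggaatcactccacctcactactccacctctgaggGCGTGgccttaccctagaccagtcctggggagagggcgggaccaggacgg
Tpi1: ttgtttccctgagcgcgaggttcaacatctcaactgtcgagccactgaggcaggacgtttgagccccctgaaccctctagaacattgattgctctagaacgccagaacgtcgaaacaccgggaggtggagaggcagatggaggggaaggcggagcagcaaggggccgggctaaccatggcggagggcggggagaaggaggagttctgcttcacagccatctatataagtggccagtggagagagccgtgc
In Bnip3, 4 of the 5 matches begin between positions −117 and −99, counted from the start site, and in Ankrd37 the match nearest the start begins at position −6. The listed Ankrd37 start lies inside the annotated span of the gene, whose end is at 46000414. A match of these letters is not a measured binding site, and its absence from the Tpi1 window says only that these letters are not in those 250 bases.

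The arrays differed in technical controls in ways that touch these genes. The mean of the 18S ribosomal RNA control probe sets, on the log2 scale, was 11.6 and 11.2 on the untreated WT arrays and 10.2 on replicate 2 of CDKO cells at 1 µM, against 5.21 to 8.44 on the other 7 arrays. The Gapdh control value at the 3′ end exceeded that at the 5′ end by 0.67 to 1.58 on those 3 arrays and by −0.31 to 0.07 on the others. The mean of the hybridisation spike-in controls was 10.2 to 10.7 on 4 CDKO arrays, namely untreated replicate 2, both at 1 µM and 5 µM replicate 2, and 11.4 to 12.1 on the remaining 6. The brighter Dicer1 probe set read 7.09 and 5.99 in untreated CDKO cells, 5.40 and 8.30 at 1 µM and 5.83 and 5.78 at 5 µM, and 8.97 and 9.10 in untreated and 7.64 and 7.19 in treated WT cells. The sources used here do not place its probes against the deleted exons, so this level checks no label. Fibroblast markers were present on every array, with at most 2 of 12 under 4.

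Across the 5 groups, treated WT cells had the highest mean for 20 of the 27 genes, and untreated CDKO cells had the lowest for 16 and untreated WT cells for 7. Among all genes tested, the corresponding shares were 17%, 11.9% and 26.2%. The exceptions at the top were few, with CDKO cells at 5 µM highest for 4 genes, CDKO cells at 1 µM for 2 and untreated WT cells for 1. Replicates were close in WT cells, where the median SD between the 2 arrays over the 27 genes was 0.05 in untreated and 0.04 in treated cells. In CDKO cells the same SD was 0.31 untreated, 0.27 at 1 µM and 0.24 at 5 µM. Untreated CDKO replicate 1 stood apart, since it lay below replicate 2 for 23 of the 27 genes and for 40.7% of all genes. The widest gap between replicates was that of Slc16a3, the lactate exporter MCT4, at 3.57 in untreated CDKO cells and 3.37 at 5 µM.

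**Figure D1:**
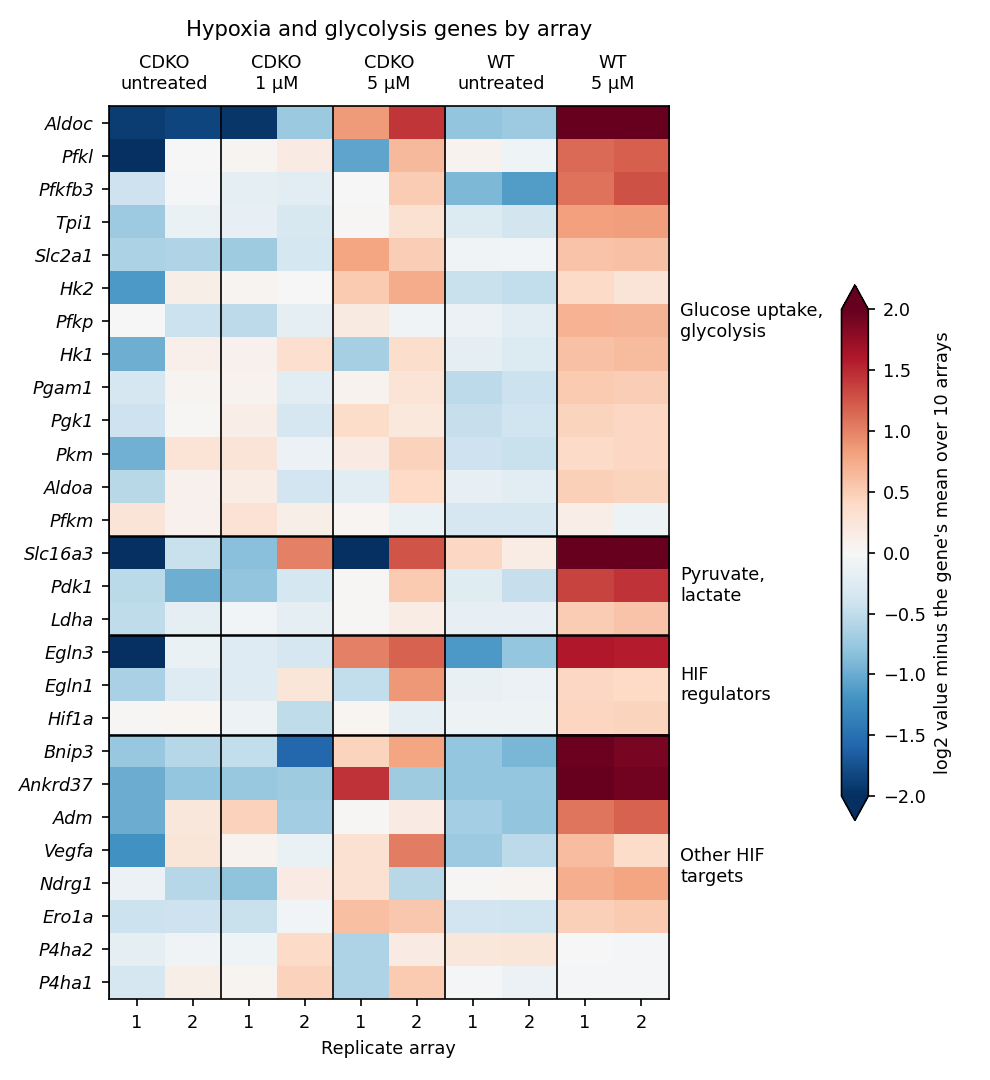
Log2 value of each of the 27 kept genes (rows, grouped by role and sorted by the range of group means) on each of the 10 arrays (columns), minus the gene's mean over the arrays; colours stop at −2 and 2. Both treated WT arrays are above the gene's mean for nearly every gene, with a median over genes of 0.59 on each, and untreated CDKO replicate 1 has the lowest median, −0.63.

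The clearest change was in WT cells given 5 µM, where 8 of the 27 genes were higher than in untreated WT cells and 0 were lower by limma with Benjamini-Hochberg adjustment (threshold 0.05), against 3.45% of all genes called higher and 4.73% called lower. The 8 were the glycolytic genes Aldoc, Pfkfb3, Tpi1 and Pgam1, the pyruvate dehydrogenase kinase Pdk1, and the HIF targets Bnip3, Ankrd37 and Ero1a. Their differences ran from 0.90 to 3.58 on the log2 scale. In all, 26 of the 27 differences were positive, as were 44.5% of those of all genes, and the median was 0.86 against −0.09 over all genes. Both treated arrays lay above both untreated arrays for 26 genes and below them for 1, and such separation was seen upwards in 36.7% and downwards in 46.7% of all genes. The 1 below was the prolyl hydroxylase subunit P4ha2, at −0.26. The spread used in these tests was pooled over all groups, and 4 single arrays decided the calls, which fell to 2 (Aldoc and Pfkfb3) without untreated WT replicate 1 and to 0 without untreated WT replicate 2 or either treated WT array, while the median stayed between 0.86 and 0.90. Leaving out a CDKO array left the WT differences unchanged, since those arrays enter this comparison only through the pooled spread. The WT groups fitted alone called 24 higher and 1 (P4ha2) lower, where 5835 of the 10623 genes were called.

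Among the 13 glucose uptake and glycolysis genes, 4 were higher in treated WT cells and all 13 differences were positive, with a median of 0.86. Aldoc, an aldolase isozyme that splits fructose bisphosphate, read 5.77 and 5.84 in untreated and 9.50 and 9.28 in treated WT cells. That is a difference of 3.58 ± 0.39 (SE, n = 2 arrays a group) with adjusted p = 0.00498, the largest among the 27 genes. Pfkfb3, which makes the activator of phosphofructokinase, read 7.00 and 6.79 untreated and 8.99 and 9.17 treated, a difference of 2.19 ± 0.25 (adjusted p = 0.00574). Untreated WT arrays were the lowest of all 10 for Pfkfb3. Tpi1, triosephosphate isomerase, went from 12.95 and 12.85 to 14.05 and 14.06, or 1.16 ± 0.24 (adjusted p = 0.0329). Pgam1, a phosphoglycerate mutase, went from 13.12 and 13.21 to 14.17 and 14.14, or 0.99 ± 0.22 (adjusted p = 0.0362). For each of these 4 genes, both treated WT arrays were also above all 6 CDKO arrays.

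Slc2a1 and Pfkl had wide ranges without passing the threshold in WT cells. Slc2a1, the GLUT1 glucose transporter, read 12.84 and 12.85 in untreated and 13.48 and 13.50 in treated WT cells, a difference of 0.65 ± 0.21 (adjusted p = 0.0904). Its WT arrays did not overlap, but the pooled spread was wide for a difference of this size. Of the 3 tested Slc2a1 probe sets, with differences of 0.65 to 1.71, 1 other than this one was called. Pfkl, the liver phosphofructokinase subunit, read 11.40 and 11.24 against 12.46 and 12.52, or 1.17 ± 0.73 (adjusted p = 0.319). Its CDKO replicates lay far apart, and the standard error pools all groups. The other 7 genes of the group, Hk1, Hk2, Pfkp, Pfkm, Aldoa, Pgk1 and Pkm, had positive differences of 0.35 to 0.86 and adjusted p of 0.0600 to 0.264. Gapdh, read only through its control probe sets and not tested, was 14.85 and 14.87 at the 3′ end in untreated and 15.16 and 15.20 in treated WT cells.

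Of the 3 genes that set the fate of pyruvate, 1 was called. Pdk1, whose product phosphorylates and switches off pyruvate dehydrogenase, read 8.0 and 7.79 in untreated and 9.60 and 9.68 in treated WT cells. The difference was 1.74 ± 0.28 (adjusted p = 0.0150), and both arrays were above all others in the series. Ldha, the lactate dehydrogenase subunit that makes lactate, read 13.71 on both untreated arrays and 14.38 and 14.44 on the treated arrays, or 0.70 ± 0.19 (adjusted p = 0.0631). Slc16a3 read 8.69 and 8.41 untreated and 10.51 and 10.61 treated, a difference of 2.01 ± 1.38 (adjusted p = 0.364), with an error pooled over the scattered CDKO arrays. WT arrays did not overlap for either gene.

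None of the 3 HIF regulators passed the threshold. Egln3, the prolyl hydroxylase that is itself a HIF target, read 6.79 and 7.16 in untreated and 9.54 and 9.51 in treated WT cells, or 2.55 ± 0.70 (adjusted p = 0.0614). Egln1, the main oxygen-sensing hydroxylase, read 9.41 and 9.45 against 9.97 and 9.96, or 0.54 ± 0.43 (adjusted p = 0.436). Treated arrays were above untreated arrays for both genes. Hif1a itself, described here after its values were seen, read 12.72 on both untreated arrays and 13.25 and 13.27 on the treated arrays, or 0.54 ± 0.21 (adjusted p = 0.129).

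Among the 8 targets with other roles, 3 were higher. Bnip3, a mitochondrial protein that triggers mitophagy, read 10.26 and 10.12 in untreated and 13.00 and 12.94 in treated WT cells. This was a difference of 2.78 ± 0.35, or 6.88-fold (adjusted p = 0.00747), and the treated values were above every CDKO array. Ankrd37, an ankyrin repeat protein induced by HIF, read 4.22 and 4.23 untreated and 7.13 and 6.92 treated, or 2.80 ± 0.59 (adjusted p = 0.0331). Since its untreated values lie just above the filter of 4, the difference is no ratio of transcript amounts, and without the filter it missed the threshold (adjusted p = 0.0965). Ero1a, which reoxidises the enzyme that forms disulphide bonds in the endoplasmic reticulum, read 10.49 and 10.48 against 11.36 and 11.40, or 0.90 ± 0.20 (adjusted p = 0.0367).

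Adm and Vegfa, both secreted factors that act on blood vessels, showed the widest ranges among the targets that were not called. Adm, the precursor of adrenomedullin, read 10.80 and 10.68 in untreated and 12.55 and 12.66 in treated WT cells, or 1.86 ± 0.47, and missed the threshold narrowly (adjusted p = 0.0512). Vegfa read 8.91 and 9.11 against 10.26 and 10.02, or 1.13 ± 0.47 (adjusted p = 0.152). In both genes the WT groups were apart while the CDKO arrays spread over more than 1 log2 unit. Ndrg1, a stress-responsive gene, and the collagen prolyl hydroxylases P4ha1 and P4ha2 differed by 0.71, 0.05 and −0.26.

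**Figure D2:**
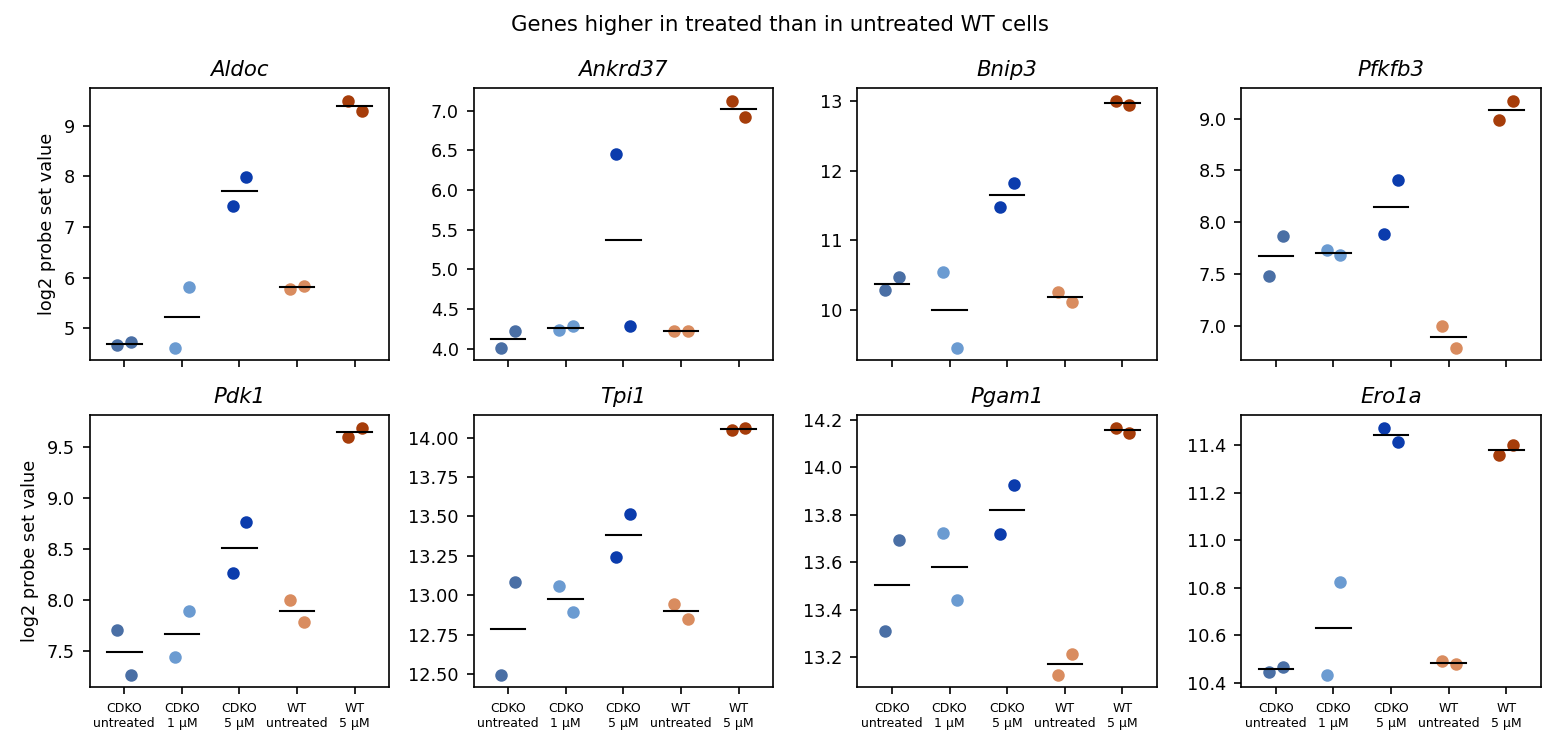
Log2 probe set value of the 8 genes higher in treated than in untreated WT cells; each point is 1 array, each bar the mean of a group of 2, and each panel has its own vertical axis, which does not start at 0. Both treated WT arrays are the 2 highest of the 10 in every panel but that of Ero1a, where the CDKO arrays at 5 µM reach 11.47 and 11.41.

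In CDKO cells given 5 µM, 0 of the 27 genes passed the threshold against untreated CDKO cells (limma, Benjamini-Hochberg), where 0.141% of all genes were called higher and 0 were called lower, and 9 had an unadjusted p under 0.05. The differences were positive for 24 genes, with a median of 0.59 against −0.01 over all genes, and Pfkm, P4ha2 and Hif1a were at −0.22, −0.09 and −0.09. The 5 µM arrays were wholly above the untreated ones for 14 genes and wholly below for 1, and 14.4% and 13.2% of all genes were separated in these ways. Among the 4 roles the medians were 0.48 for glycolysis, 1.02 for pyruvate fate, 0.64 for the regulators and 0.73 for the other targets.

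Aldoc came closest. It read 4.67 and 4.73 in untreated CDKO cells and 7.42 and 7.99 at 5 µM, a difference of 3.01 ± 0.39 (adjusted p = 0.0509), with untreated values not far above the filter. Without either array at 1 µM it passed, at an adjusted p of 0.0189, as it did under 3 of the alternative settings. Slc2a1 read 12.28 and 12.31 untreated and 13.71 and 13.40 at 5 µM, or 1.26 ± 0.21 (adjusted p = 0.105). By this probe set it was the largest Slc2a1 difference among the 3 comparisons with untreated cells of the same line. The dimmest Slc2a1 probe set instead gave 1.44 here and 1.71 in WT cells. Ero1a read 10.45 and 10.47 against 11.47 and 11.41, or 0.99 ± 0.20 (adjusted p = 0.146), close to its difference in WT cells.

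Bnip3 read 10.29 and 10.47 in untreated CDKO cells and 11.48 and 11.82 at 5 µM, or 1.27 ± 0.35 (adjusted p = 0.272). Pdk1 read 7.71 and 7.27 against 8.26 and 8.77, or 1.02 ± 0.28 (adjusted p = 0.268). Both genes were separated between the groups, each by less than in WT cells. Tpi1 read 12.49 and 13.08 against 13.24 and 13.52, Pgam1 13.31 and 13.69 against 13.72 and 13.92, and Pfkfb3 7.48 and 7.86 against 7.89 and 8.41. These 3 were also separated, but by 0.59, 0.32 and 0.48 in the means.

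Replicates scattered for several genes, and the differences of Ankrd37 and Adm turned on a single array. Ankrd37 read 4.02 and 4.23 in untreated CDKO cells and 6.45 and 4.29 at 5 µM, so that only replicate 1 was high, and its difference of 1.25 passed the threshold when replicate 2 at 5 µM was left out. Egln3 read 5.22 and 7.79 against 8.94 and 9.12, or 2.52 ± 0.70 (adjusted p = 0.279), and passed together with Hk2 when untreated replicate 2 was left out. Slc16a3 read 4.25 and 7.82 untreated and 6.16 and 9.52 at 5 µM, with replicate 1 low in both groups. Pfkl read 9.20 and 11.33 against 10.27 and 11.98, again with replicate 1 low in both, and Adm read 10.49 and 11.71 against 11.51 and 11.65. Vegfa read 8.43 and 9.88 against 9.95 and 10.66, Egln1 8.91 and 9.31 against 9.07 and 10.43, and Ldha 13.36 and 13.68 against 13.89 and 14.01. Of these last 3, Vegfa and Ldha did not overlap between the groups and Egln1 did. Without untreated replicate 1 the median over the 27 genes was 0.29, and without untreated replicate 2 it was 0.84.

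The class of the spike-in level crossed the replicates of these groups, so the comparison was also made within each class, with 1 array against 1. The median over the 27 genes was 0.75 between arrays of the higher class and 0.40 between those of the lower. Aldoc differed by 2.75 and 3.26 and Slc2a1 by 1.42 and 1.09, whereas Egln3 differed by 3.72 and 1.32 and Ankrd37 by 2.44 and 0.06. Over the 27 genes the difference was positive in both classes for 22 and negative in both for 1. It had opposite signs for 4, with Adm at 1.01 and −0.06, P4ha1 at −0.29 and 0.40, P4ha2 at −0.43 and 0.24 and Hif1a at 0.03 and −0.21.

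The signed difference from untreated CDKO cells was higher at 5 µM than at 1 µM for 21 of the 27 genes, as for 47.9% of all genes. It was higher at 1 µM for 6. The 6 were Slc16a3 (2.32 at 1 µM and 1.81 at 5 µM), Pfkl (1.17 and 0.86), Hk1 (0.64 and 0.27), P4ha1 (0.36 and 0.06), P4ha2 (0.28 and −0.09) and Pfkm (0.03 and −0.22). At 1 µM, 0 genes passed against untreated CDKO cells (0 of all genes did so, limma), and 0 had an unadjusted p under 0.05. Positive differences were seen for 24 genes and for 50.6% of all genes, and the median was 0.19 against 0.004 over all genes. Without untreated replicate 1 the median was 0.07 over the 27 genes and also 0.07 over all genes. The members' median was 0.40 without untreated replicate 2 and 0.05 when the spike-in class was blocked. Aldoc read 4.62 and 5.82 and Slc2a1 12.20 and 12.56 at 1 µM, and neither group of arrays was wholly above the untreated one. Bnip3 read 10.54 and 9.46, Ero1a 10.43 and 10.83, Pdk1 7.45 and 7.89, Tpi1 13.06 and 12.89, Pgam1 13.72 and 13.44, and Pfkfb3 7.73 and 7.68. Each of these 6 overlapped the untreated arrays. Ankrd37 was between 4.24 and 4.29 and Slc16a3 was 7.42 and 9.27. Among CDKO cells the group means were in the order untreated, 1 µM, 5 µM for 18 of the 27 genes, as they were for 13.3% of all genes.

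Between 5 µM and 1 µM in CDKO cells, 0 genes passed (0.16% of all genes were called higher) and 5 had an unadjusted p under 0.05, with a median of 0.25. Aldoc differed by 2.48 ± 0.39 (limma adjusted p = 0.0951), Bnip3 by 1.65 ± 0.35, Slc2a1 by 1.17 ± 0.21, Pdk1 by 0.85 ± 0.28 and Ero1a by 0.81 ± 0.20. For these 5 genes, among 13 of the 27, both arrays at 5 µM were above both at 1 µM, as for 17.1% of all genes. Without replicate 1 at 1 µM, Aldoc, Bnip3 and Slc2a1 passed the threshold, and without replicate 2 at 5 µM Ankrd37 did. The median was 0.52 without replicate 1 at 5 µM and 0.62 when the spike-in class entered as a block.

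The WT and CDKO comparisons at 5 µM share no arrays and can be set side by side. The sign was the same for 25 of the 27 genes, as for 63.3% of all genes. The signed difference was larger in WT cells for 20 of the 27, as for 4679 of the 10623 genes tested. Across the 27 genes, which are not independent, Pearson's r between the 2 sets of differences was 0.78 and Spearman's rho 0.69, and over all genes r was 0.48. When the difference between the lines was tested, 0 genes passed (0.301% of all genes did), 2 had an unadjusted p under 0.05, and the median was −0.38, where a negative value means a smaller change in CDKO cells. Pfkfb3 differed most, by −1.71 ± 0.35 (limma adjusted p = 0.132), then Ankrd37 by −1.55 ± 0.84 and Bnip3 by −1.51 ± 0.49. Slc2a1 leaned the other way, at 0.61 ± 0.30 (adjusted p = 0.453), but its 3 probe sets differed in sign, from −0.26 to 0.61. So none of the 27 genes was shown to respond differently in the lines. The median moved to −0.65 without untreated CDKO replicate 1 and to −0.11 without replicate 2, and Ankrd37 passed without replicate 1 at 5 µM.

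**Figure D3:**
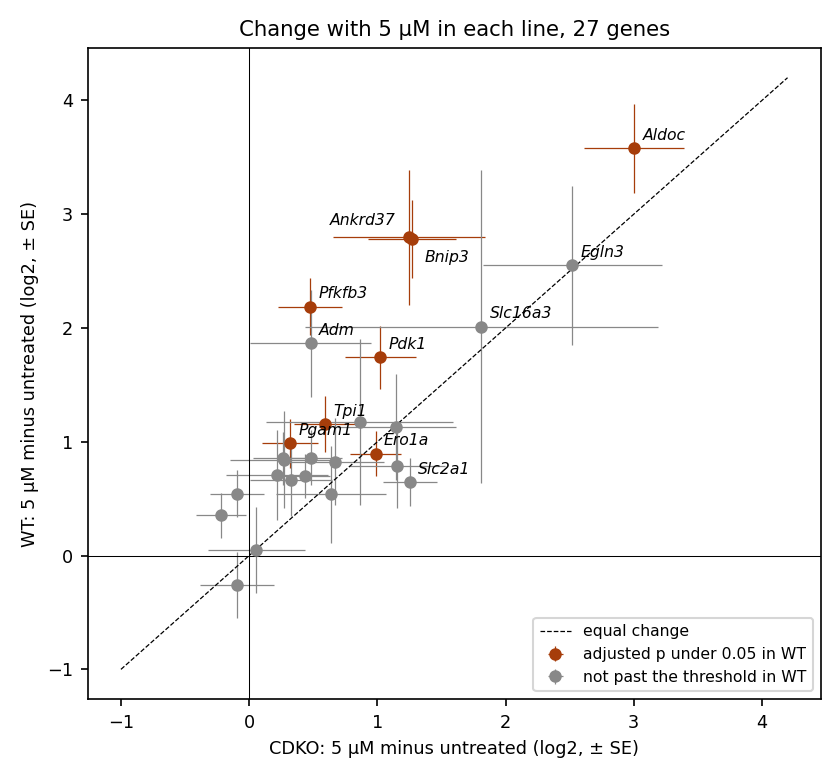
Difference between 5 µM and untreated cells in WT (vertical axis) against CDKO cells (horizontal axis) for the 27 genes, on the log2 scale, with bars of ± 1 SE from the pooled fit; the dashed line marks equal change. Most points lie above the line, as 20 genes had the larger difference in WT cells, while Egln3 lies close to it and Slc2a1 below.

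The lines were also compared without drug. Between untreated CDKO and untreated WT cells 0 of the 27 genes passed (4.54% of all genes did, limma), 4 had an unadjusted p under 0.05 and the median was −0.05. Slc16a3 was −2.52 ± 1.38 apart and Aldoc −1.11 ± 0.39, both lower in CDKO cells, and Pfkfb3 was 0.78 ± 0.25 higher (adjusted p = 0.112). A dimmer Pfkp probe set was called higher in CDKO cells, by 4.04, while the brightest gave −0.05. With the spike-in class as block, Pfkl and Slc16a3 were called lower in CDKO cells (lowest adjusted p 0.00728, limma) and the median was −0.33. All WT arrays are of the higher class. The block was therefore estimated only from the replicate gap within untreated and 5 µM CDKO cells. Pfkl and Slc16a3 read low on replicate 1 of both groups, so line and array cannot be told apart in these calls. The share of all genes called with this block is not given. Without an array of CDKO cells at 1 µM Aldoc passed, and without untreated CDKO replicate 2 Egln3 passed. The median was 0.18 without untreated CDKO replicate 1 and −0.35 without replicate 2.

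At 5 µM, CDKO cells were below WT cells for 23 of the 27 genes, with a median of −0.49 against 0.04 over all genes, and 0 genes passed (1.45% of all genes did, limma) while 9 had an unadjusted p under 0.05. Both CDKO arrays lay below both WT arrays for 18 genes, as for 24.2% of all genes. Aldoc was −1.68 ± 0.39 apart (adjusted p = 0.0912), Bnip3 −1.32 ± 0.35, Pdk1 −1.12 ± 0.28 and Pfkfb3 −0.93 ± 0.25. For Slc2a1 and Ero1a the differences between the lines at 5 µM were 0.06 ± 0.21 and 0.06 ± 0.20. With the spike-in class as block, Hk1, Pfkl, Pfkfb3 and Slc16a3 were called lower in CDKO cells (lowest adjusted p 0.0107, limma). Here too the block rests only on the gap between CDKO replicates, so line and array cannot be told apart. The share of all genes called with it is not given. Without either array at 1 µM, Aldoc and Bnip3 passed, and without CDKO replicate 1 at 5 µM Ankrd37 did.

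The design of the series sets the 4 treated CDKO arrays against the 6 arrays of the 3 other groups. In that comparison 0 of the 27 genes passed (2.43% of all genes did, limma), 0 had an unadjusted p under 0.05, and the median was −0.01. The largest differences were 0.66 for Egln3 and 0.56 for Hk2, a hexokinase, and the lowest was −0.37 for Ndrg1. Of 3 Hif1a probe sets, which ranged from −0.89 to 0.17, 1 other than the brightest was called. The treated CDKO arrays were wholly above the others for 0 of the 27 genes (0.546% of all genes) and wholly below for 0 (0.358%). Treated WT cells, the highest group for 20 of the genes, are among the arrays set against treated CDKO cells here. With the spike-in class as block Pfkl was called lower (adjusted p = 0.0358, limma). That block again rests only on the gap between CDKO replicates, and the share of all genes called with it is not given. Without untreated CDKO replicate 2 Egln3 and Hk2 passed, and without CDKO replicate 1 at 5 µM Ankrd37 did.

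Probe sets of 1 gene did not always give the same difference, and the cause of the disagreement was not tested. Of the 27 genes, 17 had more than 1 tested probe set, and in WT cells the dimmest showed the larger difference in 11 of them, by a median of 0.54 over the 17. Over the 4841 such genes in all it did so in 61.6%, by a median of 0.26, so the members' count lies near that of all genes. In CDKO cells at 5 µM against untreated it did so in 11 of the 17 (median 0.13) and in 58.7% of all such genes. At 1 µM it did so in 2 of the 17 (median −0.32) and in 38.1%. By array, the members' median of dimmest minus brightest, centred by gene, was −0.43 on both untreated WT arrays. It was −0.66 on replicate 2 at 1 µM and 0.06 to 0.55 on the other arrays. Hif1a was the clearest case. Its dimmest probe set read 4.71 and 5.83 in untreated WT cells, 9.85 and 10.09 in treated WT cells and 3.93 on replicate 2 at 1 µM, and 8.11 to 9.86 on the other 5 CDKO arrays. This is a difference of 4.70 in WT cells (limma adjusted p = 0.0803), where the brightest probe set gave 0.54. Pfkp, a platelet-type phosphofructokinase subunit, differed by 5.50 with its dimmest probe set (adjusted p = 0.0180) and by 0.86 with its brightest, and P4ha1 by 3.96 and 0.05.

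For these 3 genes the low values of the dimmest probe set lay on the 3 arrays with high 18S signal, both untreated WT arrays and replicate 2 of CDKO cells at 1 µM. Ero1a had 3.66 with its dimmest probe set and 0.90 with its brightest, Vegfa 3.42 and 1.13, and Hk1, a hexokinase, 2.80 and 0.84. For Ndrg1, 4 of 5 probe sets were called higher in treated WT cells, by 1.29 to 3.18, while the brightest, at 0.71, was not. In contrast, Pdk1 was called with 3 of 3 tested probe sets, by 1.74 to 2.11, Tpi1 with 3 of 3, by 0.97 to 1.16, and Pfkfb3 with 2 of 2, by 1.98 and 2.19. Ero1a was called with 2 of 3. Aldoc, Bnip3, Ankrd37 and Pgam1 each had 1 tested probe set. That of Bnip3 was lowest on the 3 arrays with high 18S signal, which was not so for Aldoc, Ankrd37 or Pgam1. Treatment and the 18S level cannot be told apart among the WT arrays, since both untreated arrays were high and both treated arrays low.

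**Figure D4:**
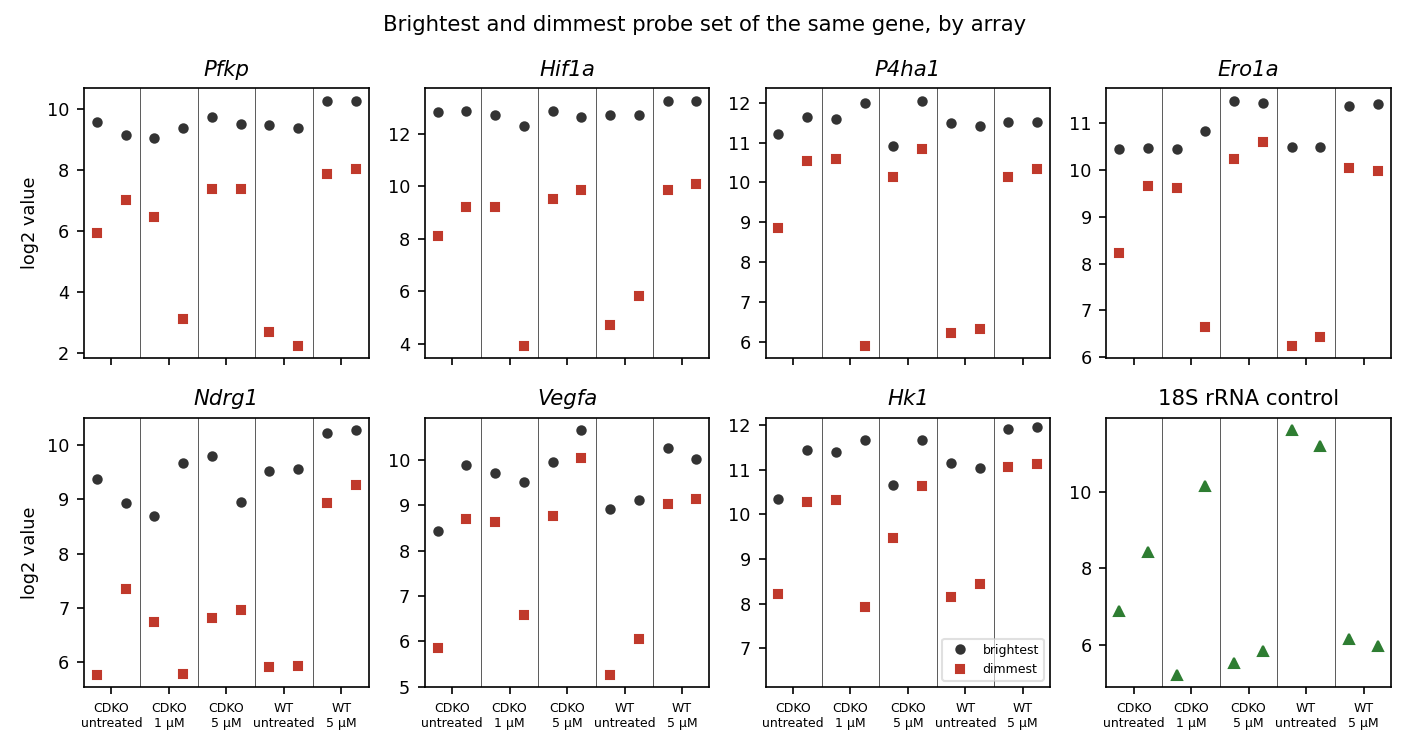
Log2 value of the brightest (black circles) and dimmest (red squares) probe set of the 7 genes in which they disagreed most in WT cells, on each of the 10 arrays, with the mean of the 18S ribosomal RNA controls in the last panel (green triangles); each panel has its own axis, which does not start at 0. In Pfkp, Hif1a, P4ha1 and Ero1a the dimmest probe set is lowest on the 3 arrays with the highest 18S signal, while the brightest shows no drop of that size.

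Other genes of the pathways were counted from lists written for this comparison. Of 20 tested HIF targets outside the 27, 7 rose and 1 fell in WT cells given the drug, with a median of 0.84. Of all genes, 3.45% were called higher and 4.73% lower in that comparison, with a median of −0.09. The 4 with the largest differences among those called were Angptl4, an inhibitor of lipoprotein lipase, at 2.22, Gbe1, the glycogen branching enzyme, at 2.17, Hilpda, a lipid droplet protein, at 1.95 and Fam162a at 1.87. Plod2, a collagen lysyl hydroxylase and also a HIF target, was lower, at −1.39. These calls too fell to 0 in each direction without any 1 of the 4 WT arrays. In CDKO cells at 5 µM 0 of the 20 passed against untreated cells. Gbe1 was higher at 5 µM than at 1 µM, by 2.74 (limma adjusted p = 0.0188), where 0.16% of all genes were called higher. Without drug, Angptl4 and Ddit4 were higher in CDKO than in WT cells, by 1.56 and 0.83, where 4.54% of all genes were called in either direction. These 3 calls were lost without either untreated WT array, and also without other arrays.

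Of 11 other glycolytic isozymes and regulators, Eno2, an enolase isozyme, and Bpgm, which makes bisphosphoglycerate, were higher in treated WT cells, by 2.45 and 1.51. Of all genes, 3.45% were called higher in that comparison. Without drug Bpgm was also higher in CDKO than in WT cells, by 1.47 (limma adjusted p = 0.0387), a call lost without any untreated CDKO array or any WT array. Eno2 was lower in CDKO than in WT cells at 5 µM, by −2.52 (limma adjusted p = 0.0270). Among 10 genes of pyruvate dehydrogenase and mitochondrial entry, 1 was called in treated WT cells, the kinase Pdk4, at 1.56. All 10 differences were positive there, with a median of 0.42. All 10 were also positive in untreated CDKO against untreated WT cells, with a median of 0.43. Pdk4 was also called higher in that comparison, by 1.61, and in treated CDKO cells against the 3 other groups, by 0.86. In WT cells 0 of 15 citric acid cycle genes, 0 of 6 pentose phosphate genes and 0 of 8 further HIF regulators, which include Epas1, Vhl and Arnt, passed, with medians of 0.34, 0.20 and 0.07. Without any 1 of the 4 WT arrays, the calls of Eno2, Bpgm and Pdk4 in treated WT cells were lost, as was that of Eno2 between lines at 5 µM. The Pdk4 call between untreated lines was lost without either untreated WT array or untreated CDKO replicate 2. In treated CDKO cells against the other groups, the Pdk4 call was lost without any WT array, untreated CDKO replicate 1 or CDKO replicate 1 at 5 µM.

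Markers of division and of other cell types also differed between the WT groups. Of all genes, 3.45% were called higher and 4.73% lower in treated WT cells, with a median of −0.09. Of 19 mitosis genes 11 were lower in treated WT cells, with a median of −2.24, and the summed level of the list was 14.4 and 14.5 on the untreated arrays and 12.4 on both treated arrays (log2). Without any 1 of the 4 WT arrays 0 of the mitosis genes passed, and without either CDKO array at 5 µM 4 did. In CDKO cells 0 of the 19 passed at 5 µM, with a median of −0.91. The summed level in these cells was 13.3 and 12.3 untreated and 12.2 and 11.9 at 5 µM, so that untreated replicate 1 stood apart. Of 6 tested skeletal muscle markers 5 were lower in treated WT cells, and of 4 epithelial markers 2 fell, Krt8 (a keratin) at −5.84 and Cdh1 (E-cadherin) at −3.37. The summed muscle level was 10.2 and 10.0 in untreated WT cells, against 7.27 to 9.86 on the other arrays, where 7 of 9 markers were under 4 on each. The summed epithelial level was 10.5 on both arrays of untreated WT cells and 7.08 to 9.17 elsewhere. Of 14 macrophage and leukocyte markers 0 were called in WT cells, with summed levels of 13.4 and 13.5 untreated and 14.0 on both treated arrays. Of 12 fibroblast markers 1, Pdgfra, was lower in treated WT cells, at −2.37 (limma adjusted p = 0.0263), a call lost without any 1 of the 4 WT arrays. The median of the fibroblast list was −0.72, with 8 of 12 negative.

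The same lists also moved with dose and line in the comparisons that involve CDKO cells. In CDKO cells at 5 µM against untreated, the fibroblast median was −0.75 with 10 of 12 negative and 0 called. With each gene centred on its mean, the list's median by array was −1.26 and −0.01 at 5 µM. It was 0.19 and 0.07 on the untreated arrays, so the gap lay on 5 µM replicate 1. All 14 macrophage and leukocyte markers were higher at 5 µM than at 1 µM in CDKO cells (median 1.02), with 0 called, and their summed level was 13.4 and 11.7 at 5 µM and 11.4 and 10.9 at 1 µM, so that 5 µM replicate 1 stood apart. Between untreated lines all 14 were lower in CDKO cells (median −1.59), and at 5 µM 13 of 14 were (median −1.40), again with 0 called. In treated CDKO cells against the other groups C1qa and C1qc, subunits of complement C1q, were called lower, at −2.04 and −1.55, where 2.43% of all genes were called. Both were lost without untreated CDKO replicate 1, CDKO replicate 2 at 5 µM or any WT array, while 7 markers passed without CDKO replicate 1 at 5 µM and 5 without untreated CDKO replicate 2. C1qc alone was lost without CDKO replicate 2 at 1 µM. Between untreated lines 2 mitosis genes, 5 muscle markers and 2 epithelial markers were lower in CDKO cells, and 4 muscle and 2 epithelial markers were called in the difference between the lines' responses. The shares of all genes called in these comparisons were 4.54% and 0.301%. The count of mitosis genes was 13 without either CDKO array at 1 µM and at most 1 without any other array. In the difference between responses the muscle count was 1 without untreated WT replicate 2 and 0 without either treated WT array, where the epithelial count was 1. The part of all these differences in the changes of the hypoxia and glycolysis genes was not tested.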

How the data were processed

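Each array's log2 value per probe set is used as the authors deposited it. The submitters' processing notes name GCRMA, with version and chip definition not given in the sources used here. From the values, the scale was read as log2. Of 45101 probe sets, 34958 had 1 gene symbol, 932 several and 9211 none in GEO's platform annotation, and genes are named from the first kind alone. After 64 controls were left out, the 20681 probe sets reaching 4 in some group mean entered a linear model of the 5 group means, which leaves 5 residual degrees of freedom (limma 3.58.1, functions lmFit and eBayes, in R 4.3.3). P-values of the 8 comparisons were Benjamini-Hochberg adjusted over all 20681, with a threshold of 0.05. Shares of all genes are over 10623 genes, each by its brightest single-symbol probe set. The number of arrays limits the precision. The fit was tested on simulated data.

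The members, lists and tests were chosen with earlier results of these data known. Values of every array are given for members past the threshold in at least 1 comparison, and for up to 2 more per role with the widest range of group means. Of each other pathway list, up to 4 called genes with the largest change are named per comparison. Plod2, Krt8, Cdh1, Pdgfra, C1qa, C1qc, Hif1a, the members larger at 1 µM or differing in sign between spike-in classes, and the genes whose probe sets disagree were named after their values were seen, and so were members singled out when an array was left out. Promoter windows came from RefSeq (GRCm38.p6) by symbol. The result was recomputed without the filter, with a filter at 6, a trended and robust prior, median centring, between-array quantiles, a single or an averaged probe set for each gene, array weights, a block for the replicate number or the spike-in class, the compared groups by themselves, and with every array left out in turn.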

Additional observations from a re-analysis of the deposited data

How the results depend on the processing

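The 8 calls in WT cells gave 168 values under the alternatives, of which 134 kept the threshold, 34 lost it and 0 reversed. The count in WT cells was 13 with the mean of all probe sets per gene (median 1.82), 25 with array weights, 15 with the spike-in block, 25 (24 higher, 1 lower) with the compared groups alone and 0 to 13 with 1 array left out. With the replicate block 5 of the 8 remained, and Tpi1, Pgam1 and Ero1a were lost. Replicate numbers were not taken as pairs, since the replicate differences of untreated CDKO cells correlated at −0.37 with those at 1 µM and 0.46 with those at 5 µM, and those of the WT groups at −0.02. The block left the counts of the other comparisons at 0. The count for CDKO cells at 5 µM was 1 with a trended and robust prior (Slc2a1), and 1 with quantile normalization, 1 probe set per gene or the mean of probe sets (Aldoc), and 0 to 2 with 1 array left out (median 0.29 to 0.84). At 1 µM it stayed 0, with a median of 0.05 to 0.40. Between 5 µM and 1 µM it was 0 to 3 (median 0.25 to 0.52, and 0.62 with the spike-in block), and for the difference between lines 0 to 1 (median −0.65 to −0.11). For untreated CDKO against WT cells it was 1 with the mean of probe sets (Pfkp), 2 with the spike-in block (Pfkl and Slc16a3, median −0.33) and 0 to 1 with 1 array left out (median −0.35 to 0.18). At 5 µM it was 1 with the mean of probe sets (Ndrg1), 1 with array weights (Aldoc), 4 with the spike-in block (Hk1, Pfkl, Pfkfb3 and Slc16a3) and 0 to 2 with 1 array left out, and for all treated CDKO cells 1 (Pfkl) with the spike-in block and 0 to 2. The causes were not tested, and the share of all genes called rose too in WT cells with array weights and with the compared groups alone. The counts of this section are given without the share of all genes under the same setting. Whether a higher count is particular to these genes was therefore not tested. That last setting could not be run for the treated CDKO cells against the other groups. The limits are that a group has 2 arrays and that the spread is pooled over groups that scatter unequally, with replicate SDs several times larger in CDKO than in WT cells.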
